A study of Aedes albopictus with 4 samples.

Results

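Vanin-like genes are the genes of Aedes albopictus, the Asian tiger mosquito, whose product name in the deposited table contains "vanin-like". The table held 5 such genes among 25320. One of them, LOC109421937 (vanin-like protein 1), is the gene described most closely here, and the other 4 serve as its comparison. LOC109421937 was singled out because it rose strongly with diquat in these same libraries, so its difference between the groups is given as a description, with no p-value.

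The RNA came from whole larvae in the fourth instar, the last larval stage. Untreated larvae and larvae given the herbicide diquat at 1/5 of the LC50 (the concentration that kills the median larva) were compared at 72 h, with 2 libraries in each group. Diquat is a bipyridyl compound that passes electrons to oxygen inside cells. The labels give no strain or sex and do not say how many larvae went into a library. Neither do they say whether the replicates came from separate batches of larvae, so the spread between these libraries may be technical. The p-values and SEs of the fit measure no other spread. They draw it toward a trend over all genes, so the SE of a gene can be smaller than its own libraries would give.

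Vanins are named after a mouse protein and belong to the carbon-nitrogen hydrolase superfamily, with biotinidase as a close relative. In mammals a vanin is a pantetheinase: it splits pantetheine, a breakdown product of coenzyme A, into pantothenate (vitamin B5) and the small thiol cysteamine. Mammalian vanin-1 sits on the outer face of epithelial cells, and mice without it hold more glutathione and withstand oxidative stress better. The mosquito genes carry the name by similarity, and neither enzyme activity nor coenzyme A was measured here.

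The deposited values are normalized counts, read counts divided by 1 factor per library. Dividing them by the value of 1 read gave whole reads, between 34502559 and 39242657 per control library and between 45243090 and 48383964 per diquat library. A fit over the 17992 genes that averaged at least 10 normalized counts (limma on log2(value + 1), two-sided, Benjamini-Hochberg adjusted p under 0.05) called 48.8% of genes, 26.7% higher and 22.0% lower with diquat, and the median log2 fold change was 0.00. Called genes are thus common in these data. Fold changes are given as log2 changes on the log2(value + 1) scale.

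LOC109421937 stood at 1611.1 and 1644.4 normalized counts in controls and at 14463.7 and 14369.2 in diquat larvae. Both diquat values lay far above both controls, and within each group the libraries differed by no more than their counting error, with 95% Poisson intervals of 1526 to 1699 and 1564 to 1728 in controls and of 14240 to 14690 and 14150 to 14590 with diquat. The means were 1628 ± 23.5 and 14416 ± 66.8 (SD, n = 2 per group), a log2 fold change of 3.15 ± 0.03 (SE) or 8.85-fold. The values rest on 1347 and 1576 reads in controls and on 15785 and 16836 reads with diquat. Poisson intervals here cover counting error only.

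In rank by normalized counts, which are not corrected for gene length, LOC109421937 moved from place 3402 and 3331 among all genes in controls to place 400 and 402 with diquat. Its log2 fold change was exceeded by 19 of the tested genes. None of these 19 was among the 4890 tested genes with a control mean of at least 1000 normalized counts. Since LOC109421937 was singled out for its fold change, and that cutoff lies below its control mean of 1628, this is a description only. In the ordering by log2 fold change from which it was singled out, over described genes called higher that averaged at least 50 and had separate groups, it stood in place 11, between a synaptic vesicle glycoprotein 2B-like gene (LOC109414631, log2 fold change 3.34) and trypsin-1 (LOC109430115, 3.09), with place 13 at 3.07.

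The other vanin-like genes moved far less. Of the 4, 3 rose in the fit over all genes and 1 did not pass, against a background of 26.7% of genes called higher and 9.36% called higher by at least 1.5-fold, a size that the 3 exceeded with 1.66-fold, 1.79-fold and 1.81-fold. LOC109421936, also named vanin-like protein 1, had 1190.1 and 1263.5 normalized counts in controls and 2180.8 and 2260.0 with diquat. Its groups did not overlap (both diquat libraries lay above both controls in 37.4% of tested genes), and it rose by a log2 change of 0.86 ± 0.06 (SE, n = 2 per group; limma adjusted p = 8.93e-13).

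LOC109421940, a vanin-like protein 1 gene with 2 annotated transcripts, had 1813.2 and 2137.9 normalized counts in controls and 3219.8 and 3309.8 with diquat. Both diquat libraries were higher than both controls, with a log2 change of 0.73 ± 0.06 (SE, n = 2 per group; limma adjusted p = 2.67e-11). LOC134289400, again named vanin-like protein 1, had 654.2 and 814.9 in controls and 1286.5 and 1322.9 with diquat. Its groups were also separate, with a log2 change of 0.84 ± 0.08 (SE, n = 2 per group; limma adjusted p = 2.97e-09). In both genes control replicate 2 stood above control replicate 1 by more than counting error, since the 95% Poisson intervals were 1723 to 1907 against 2046 to 2232 for LOC109421940 and 600.6 to 711.4 against 758.7 to 874.1 for LOC134289400.

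LOC109421938 is the one gene named vanin-like protein 2. It had 383.9 and 337.0 normalized counts in controls and 365.6 and 387.5 with diquat, so the groups overlapped. The log2 fold change was 0.07 ± 0.12 (SE, n = 2 per group; limma adjusted p = 0.671), with a 95% interval from -0.17 to 0.30. The whole interval lies below those of the other 3 comparison genes, whose lower bounds were 0.61 to 0.74. Depth was modest, at 321 to 454 reads per library.

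**Figure D1:**
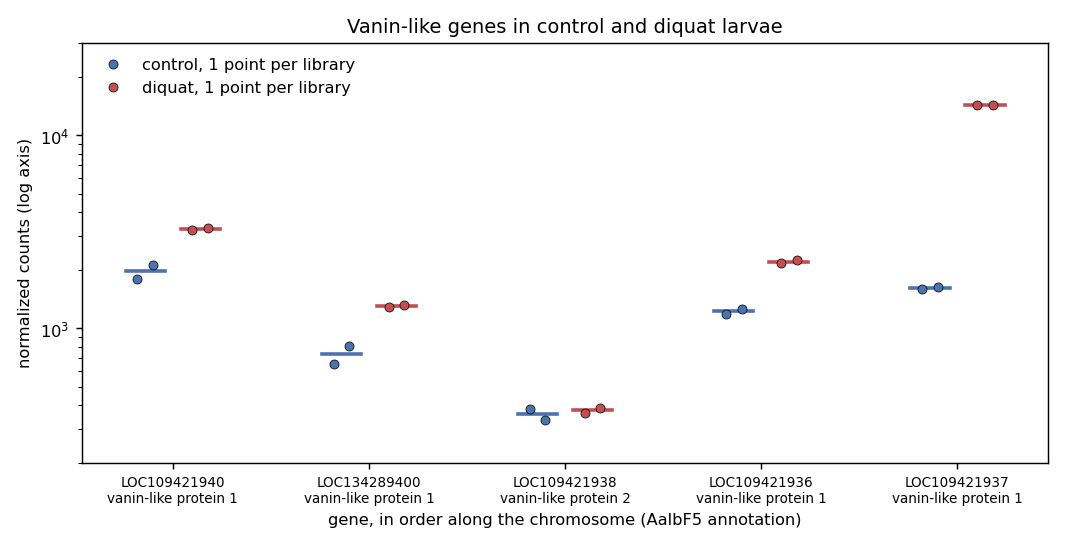
Normalized counts (log axis) of the 5 vanin-like genes, 1 point per library and a bar at each group mean, control in blue and diquat in red. LOC109421937 goes from a mean of 1628 to 14416 with diquat, 3 genes rise by less than 2-fold, and LOC109421938 overlaps between the groups.

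Ratios between copies within a library show the same split without relying on the scaling between libraries. The log2 ratio of LOC109421936 to LOC109421937 was -0.44 and -0.38 in controls and -2.73 and -2.67 with diquat. The log2 ratio of LOC109421937 to LOC109421940 turned from -0.17 and -0.38 in controls to 2.17 and 2.12 with diquat, so the gene with more counts was LOC109421940 in controls and LOC109421937 with diquat. Among the 3 genes that rose modestly, group means of the log2 ratios differed by 0.13 or less. The log2 ratio of LOC109421936 to LOC134289400 was 0.86 and 0.63 in controls and 0.76 and 0.77 with diquat, overlapping between groups. The other 2 ratios were separate between groups: that of LOC109421936 to LOC109421940 was -0.61 and -0.76 in controls and -0.56 and -0.55 with diquat, and that of LOC109421940 to LOC134289400 was 1.47 and 1.39 in controls and 1.32 in both diquat libraries. With 2 libraries against 2 a two-sided exact permutation test cannot go below p = 0.333, so no ratio could pass a test on its own.

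The 5 genes together had 5652.6 and 6197.6 normalized counts in controls and 21516.4 and 21649.4 with diquat, a ratio of 3.64 between group means. LOC109421937 supplied 81.7% of that increase. Its share of the family's counted reads was 28.5% (95% Wilson interval 27.2 to 29.8) and 26.5% (25.4 to 27.7) in controls, and 67.2% (66.6 to 67.8) and 66.4% (65.8 to 67.0) with diquat. Without it, the other 4 genes summed to 4041.5 and 4553.3 in controls and 7052.7 and 7280.2 with diquat, a ratio of 1.67. These are shares of reads, not of molecules: transcript lengths were not given, so levels of different copies are not compared.

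**Figure D2:**
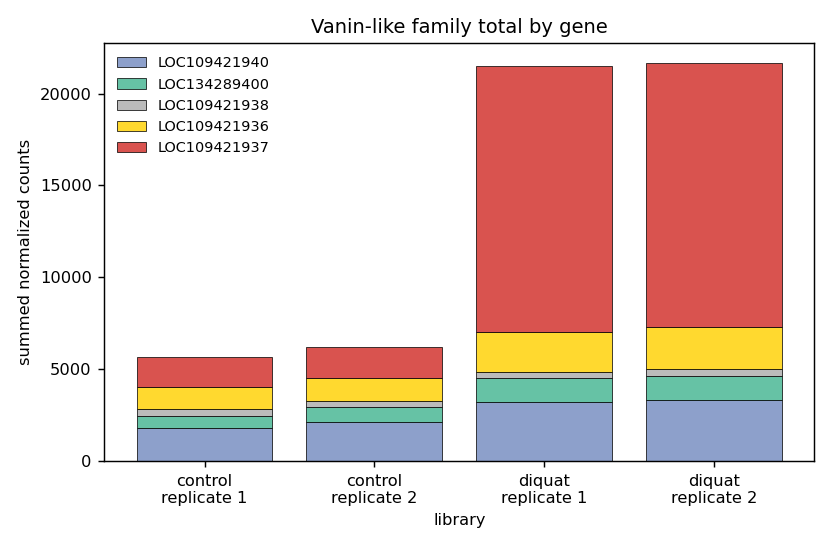
Summed normalized counts of the 5 vanin-like genes in each library, stacked by gene on a linear axis from 0. LOC109421937 (red, top) fills 26.5% to 28.5% of the control bars and 66.4% to 67.2% of the diquat bars.

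The vanin-like genes are neighbours. In the AalbF5 annotation of the species all 5 lie on chromosome 3 within a run of 6 consecutive genes, in the order LOC109421940, LOC134289400, the uncharacterized LOC115262959, LOC109421938, LOC109421936 and LOC109421937. None of the 5 overlaps another gene there. No source used here names the build behind the deposited counts, so that annotation serves only for gene order and overlap. Neither is it stated how reads that match several similar copies were counted, and part of a copy's value may belong to another copy.

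LOC109421937 stands at one end of the run. LOC109421936 and LOC109421938, its nearest neighbours on the family's side, are described above. The next gene, LOC115262959, had only 4 to 15 reads per library and was below the filter. On the far side the 3 nearest genes, which are not vanin-like, all rose, as did 26.7% of all tested genes. SSU72, a phosphatase of the RNA polymerase II tail (LOC109421935), had 605.2 and 575.9 normalized counts in controls and 916.3 and 909.8 with diquat, a log2 change of 0.63 ± 0.08 (SE, n = 2 per group; limma adjusted p = 2.37e-07). Large subunit GTPase 1 homolog (LOC109421934), which in yeast acts in the export of large ribosomal subunits, had a log2 change of 0.63 ± 0.08 (SE, n = 2 per group; limma adjusted p = 5.01e-07). It overlaps the SSU72 gene in part, and reads of those 2 genes were not separated. Leucine-rich repeat-containing protein 47 (LOC109421932) rose by 1.12 ± 0.08 (SE, n = 2 per group; limma adjusted p = 2.01e-12). Beyond these genes, merlin (LOC109432691) was at -0.01 and did not pass (limma adjusted p = 0.965). An OTU domain-containing protein 7B gene (LOC109432666) rose by 0.18 (limma adjusted p = 0.0379). Sodium channel protein para (LOC109421922) fell, with a log2 change of -0.42 (limma adjusted p = 3.22e-10). The tested genes within 3 places of LOC109421937 thus ranged from 0.07 to 1.12 on the log2 scale, beside its own 3.15.

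**Figure D3:**
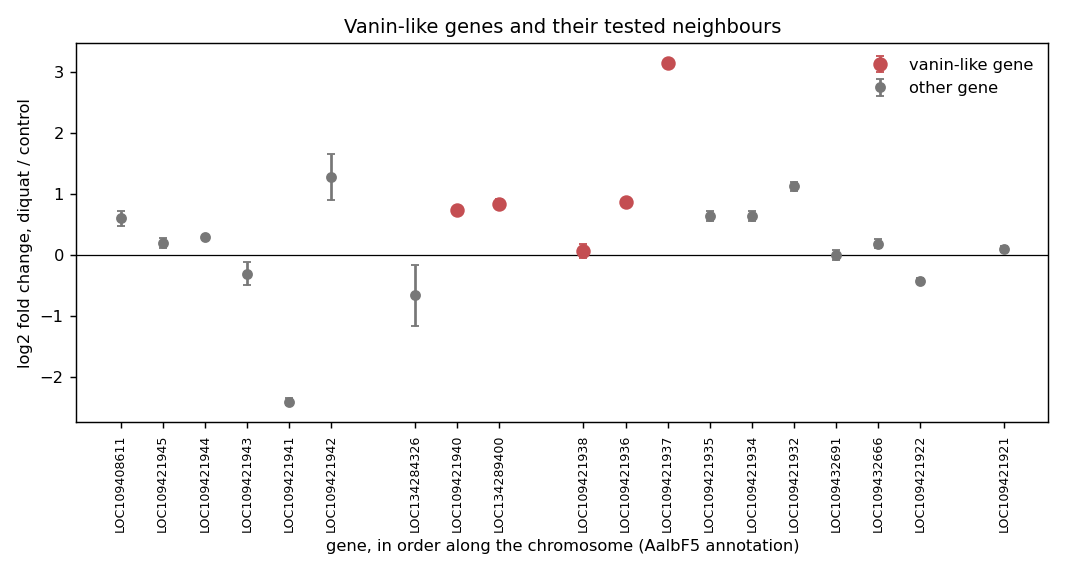
Log2 fold change (diquat over control, bars give the SE) of the tested genes in order along the chromosome, from 8 genes before the first to 8 genes after the last vanin-like gene. Vanin-like genes are red and others grey, and LOC109421937 at 3.15 is the highest point in the stretch.

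Genes that make, carry and break down coenzyme A, or that use cysteamine and its relatives, were examined as the metabolic setting of a pantetheinase. The 6 lists were defined by product name and held 45 tested genes, of which 23 rose, 7 fell and 15 did not pass, with a median log2 fold change of 0.29 against 0.00 over all tested genes. The shares called, 26.7% higher and 22.0% lower over all genes, are the background for these counts.

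Of the 7 genes of coenzyme A synthesis and pantothenate uptake, 3 rose, 1 fell and 3 did not pass (median log2 fold change 0.24). Pantothenate kinase 3 (LOC109425617), of the family that commits pantothenate to coenzyme A synthesis, had 2329.9 and 2320.5 normalized counts in controls and 3770.5 and 3759.6 with diquat, a log2 change of 0.70 ± 0.04 (SE, n = 2 per group; limma adjusted p = 1.55e-13). It lies inside LOC134284167 in the AalbF5 annotation. A putative sodium-dependent multivitamin transporter (LOC109413683), named for a carrier that takes up pantothenate and biotin in mammals, had 2224.7 and 2180.6 in controls and 3147.5 and 3462.6 with diquat, a log2 change of 0.58 ± 0.05 (SE, n = 2 per group; limma adjusted p = 8.76e-11). For both genes the diquat libraries lay above both controls.

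Phosphopantothenate--cysteine ligase (LOC109411495), which joins cysteine to phosphopantothenate, went the other way. It had 723.6 and 620.8 normalized counts in controls and 403.2 and 458.3 with diquat, a log2 change of -0.64 ± 0.10 (SE, n = 2 per group; limma adjusted p = 6.74e-06). The bifunctional coenzyme A synthase (LOC134285660), which carries out the closing steps of the pathway, rose by 0.29 ± 0.09 (SE, n = 2 per group; limma adjusted p = 0.00707), a call lost without diquat replicate 1 (limma adjusted p = 0.0841), under quantile normalization (limma adjusted p = 0.054) and after removal of the trend on gene span (limma adjusted p = 0.256). Phosphopantothenoylcysteine decarboxylase (LOC109622237), the 4'-phosphopantetheine phosphatase (LOC109406242) and a dephospho-CoA kinase domain gene (LOC115269340) did not pass, at 0.10, -0.08 and 0.24 on the log2 scale.

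The list for coenzyme A breakdown held 14 tested genes, of which 8 rose, none fell and 6 did not pass (limma; median log2 fold change 0.32). The count of falls was 1 without diquat replicate 2, and the count of rises was then 5. No gene named pantetheinase was in it. It consists mostly of alkaline phosphatases, phosphate-releasing enzymes of broad specificity, and it includes acyl-coenzyme A diphosphatase FITM2 (LOC134288265), a protein of lipid droplet formation. Membrane-bound alkaline phosphatase-like LOC134289615 had 126.8 and 91.8 normalized counts in controls and 538.8 and 465.1 with diquat, a log2 change of 2.20 ± 0.16 (SE, n = 2 per group; limma adjusted p = 5.69e-12). LOC134289614 of the same name rose by 0.86 ± 0.04 and LOC134289612 by 0.32 ± 0.03 (SE, n = 2 per group; limma adjusted p = 1.38e-15 and 7.43e-10), while LOC134289613 stood at 0.02 and did not pass. LOC134289612 was at 0.15 with the trend on gene span removed and at 0.18 under quantile normalization. These 4 genes lie inside LOC109409873 in the AalbF5 annotation, and LOC134289614 overlaps LOC134289613 in part. Also inside LOC109409873 are LOC134290940 and LOC134291813, which were among the 8 that rose. LOC109623068, another of the 8, lies inside LOC109414942. Of the 14 genes 9 overlap another gene, so the rises are not all at separate places. Alkaline phosphatase 4-like (LOC115267936) rose by 0.68 ± 0.10 (SE, n = 2 per group; limma adjusted p = 4.36e-06). The mitochondrial coenzyme A diphosphatase NUDT8 (LOC109421968), which cleaves coenzyme A in mammals, was at 0.25 and did not pass (limma adjusted p = 0.273).

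The list around the acyl carrier protein, which receives the phosphopantetheine arm of coenzyme A, gave 3 rises of 3. The mitochondrial acyl carrier protein (LOC109401281), which holds growing fatty acids on that arm, had 5231.6 and 5341.0 normalized counts in controls and 6753.1 and 6766.4 with diquat, a log2 change of 0.36 ± 0.03 (SE, n = 2 per group; limma adjusted p = 3.71e-10). The phosphopantetheinyl transferase that attaches the arm (LOC109419668) rose by 0.48 ± 0.15 (SE, n = 2 per group; limma adjusted p = 0.0111) and a malonyl transacylase that loads the carrier (LOC109404952) by 0.45 ± 0.17 (limma adjusted p = 0.0292). In the AalbF5 annotation the transferase lies inside LOC109410019 and the transacylase inside LOC134288404. Without diquat replicate 2, 1 of the 3 was called, and likewise after removal of the trend on gene span. The transacylase also lost its call without control replicate 1 (limma adjusted p = 0.0838), without diquat replicate 1 (0.0541), with a constant variance prior (0.0524) and in DESeq2 (adjusted p = 0.102).

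Among 7 relatives of vanins in the carbon-nitrogen hydrolase superfamily, 3 rose and 4 did not pass (median log2 fold change 0.32). The median was 0.17 without diquat replicate 1. The 3 were among 4 omega-amidase NIT2 genes, named for an enzyme that takes the amide off the keto acids of glutamine and asparagine. LOC109430394 had 113.6 and 87.6 normalized counts in controls and 326.2 and 349.9 with diquat, a log2 change of 1.75 ± 0.17 (SE, n = 2 per group; limma adjusted p = 1.6e-09). LOC109430404 and LOC109408866 rose by 0.44 ± 0.06 and 0.43 ± 0.05 (SE, n = 2 per group; limma adjusted p = 7.94e-07 and 1.01e-08), while LOC109430401 was at 0.11 and did not pass (limma adjusted p = 0.253). NitFhit (LOC109424681) stood at 0.32 and did not pass (limma adjusted p = 0.0547), and passed without diquat replicate 2 (limma adjusted p = 0.0315). Beta-ureidopropionase (LOC109416534), which makes beta-alanine, a building block of pantothenate, was at -0.01, and the glutamine-dependent NAD(+) synthetase (LOC109433644) at 0.04. Biotinidase was not among the matched names.

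Of the 3 genes around cysteamine, taurine and beta-alanine, 2 fell and 1 did not pass. Cysteine sulfinic acid decarboxylase (LOC109407253), which forms hypotaurine from cysteine sulfinic acid in mammals, had 1186.5 and 1179.0 normalized counts in controls and 443.5 and 485.6 with diquat. Both diquat libraries lay below both controls, as in 35.5% of tested genes, and the log2 fold change was -1.35 ± 0.08 (SE, n = 2 per group; limma adjusted p = 1.49e-13). Cysteine dioxygenase type 1 (LOC109425710), which makes cysteine sulfinic acid, had 2120.6 and 2087.8 in controls and 1460.6 and 1434.7 with diquat, a log2 change of -0.54 ± 0.05 (SE, n = 2 per group; limma adjusted p = 2.72e-09). The enzyme that oxidizes cysteamine itself, 2-aminoethanethiol dioxygenase (LOC109408026), had 232.0 and 278.6 in controls and 293.2 and 280.8 with diquat, with a log2 change of 0.17 ± 0.14 (SE, n = 2 per group; limma adjusted p = 0.306).

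Glutathione synthesis and turnover, which vanin-1 is known to affect in mice, had 6 rises, 4 falls and 1 gene that did not pass among 11 (median log2 fold change 0.16, and 0.10 without control replicate 2 or 0.27 with the trend on gene span removed). Glutamate--cysteine ligase (LOC134290082), the rate-limiting enzyme of glutathione synthesis, had 831.3 and 734.5 normalized counts in controls and 1186.6 and 1235.0 with diquat, a log2 change of 0.63 ± 0.07 (SE, n = 2 per group; limma adjusted p = 6.45e-08). Glutathione-specific gamma-glutamylcyclotransferase 1 (LOC134285831), which degrades glutathione, rose by 0.81 ± 0.07 (SE, n = 2 per group; limma adjusted p = 8.08e-11). A glutathione hydrolase 1 proenzyme-like gene (LOC134285314), of the family that cleaves glutathione outside cells, fell by 0.47 on the log2 scale (SE 0.03, n = 2 per group; limma adjusted p = 6.31e-13), and was at -0.12 with the trend on gene span removed (limma adjusted p = 0.00159). Another gene of that name, LOC115267223, which lies inside LOC109402227 in the AalbF5 annotation, rose by 0.43 ± 0.06 (SE, n = 2 per group; limma adjusted p = 4.91e-07). Cystathionine beta-synthase-like LOC109427466, named for an enzyme on the route from methionine to cysteine, had the largest fall of the list. It went from 2264.2 and 2248.5 in controls to 119.1 and 158.7 with diquat. The log2 change was -4.03 ± 0.11 (SE, n = 2 per group; limma adjusted p = 3.87e-21). The gene named cystathionine beta-synthase (LOC109427518) had 1275.0 and 1176.9 in controls and 1182.9 and 1107.0 with diquat. Its log2 change was -0.10 and it did not pass (limma adjusted p = 0.234).

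**Figure D4:**
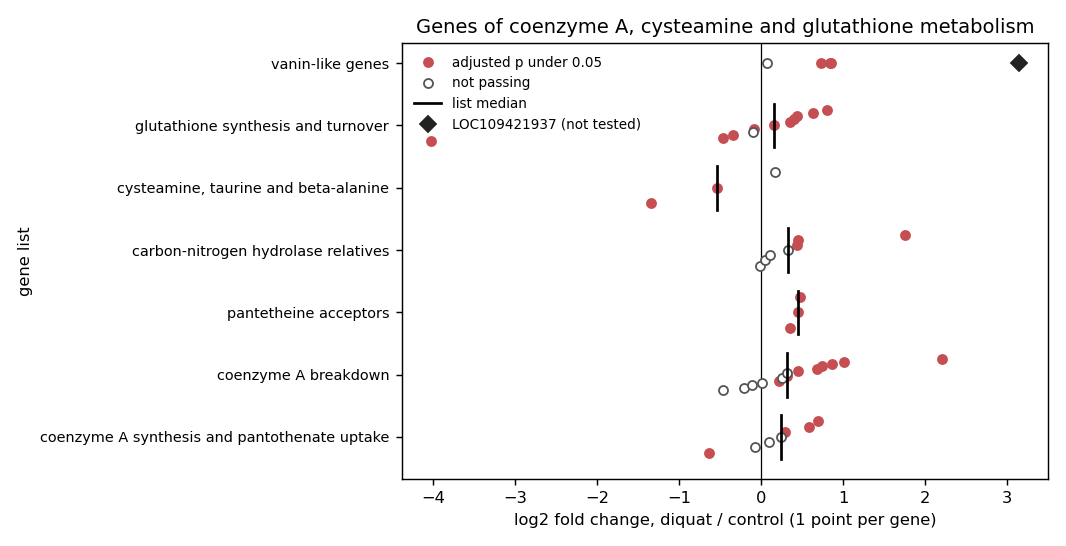
Log2 fold change (diquat over control) of each tested gene in the 6 metabolic lists and of the vanin-like genes, 1 point per gene, filled red where the limma adjusted p is under 0.05, with a vertical bar at each list's median. List members lie mostly between -1 and 1, with LOC134289615 highest at 2.20 and LOC109427466 lowest at -4.03. LOC109421937 (black diamond, shown without a test) lies at 3.15.

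Genes whose values over the 4 libraries ran closest to those of LOC109421937 were found by the Euclidean distance between log2(value + 1) profiles, each centred on its own mean, over 14369 other genes that averaged at least 50 normalized counts. The nearest described gene was trypsin-1 (LOC109430115), a digestive protease by name, at a distance of 0.107, with 503.5 and 488.3 normalized counts in controls and 4084.8 and 4351.9 with diquat. Next came a sodium/potassium-transporting ATPase subunit beta-1 gene (LOC115256865, inside LOC134287936) at 0.201, CLIP domain-containing serine protease B8-like (LOC134286581) at 0.214 and a chymotrypsin inhibitor (LOC109399431, inside LOC109400761) at 0.268. Phenoloxidase-activating factor 2-like (LOC115257596) followed at 0.335 and a synaptic vesicle glycoprotein 2B-like gene (LOC109414631) at 0.388. The log2 changes of these 6 were between 2.95 and 3.34, and with 4 libraries in 2 groups any gene that rose by a similar factor comes out near. No vanin-like gene was near by this measure: LOC109421936, the closest, was at a distance of 2.29 and in place 475.

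Whole larvae mix all tissues, and in such samples more cells of a type cannot be told apart from more RNA per cell. Markers of several tissues differed between the groups, and their part in the vanin-like values was not tested. Over all tested genes 26.7% were called higher and 22.0% lower, which is the background for the counts below. Midgut markers were matched by product names that hold trypsin, peritrophin, aminopeptidase N or zinc carboxypeptidase. The match also takes in genes such as the chymotrypsin inhibitor LOC109399431. Of 116 tested genes so matched 54 rose and 24 fell, the falls near the background share. Their summed normalized counts were 547405.8 to 551666.0 in controls and 520533.5 to 524464.2 with diquat. Genes taken as markers of Malpighian tubules and other ion-pumping epithelia were matched only by product names that hold V-type proton ATPase or aquaporin. Of 30 genes so matched 21 rose and 3 fell, with sums of 209361.4 to 209811.4 and 261858.5 to 262444.2. Fat body markers gave 4 rises and 4 falls of 16, near the shares over all tested genes. Their sums were 1105316.3 to 1110246.2 in controls and 982563.2 to 986367.3 with diquat. Epidermal cuticle protein genes fell in 126 and rose in 5 of 149, with sums of 625543.7 to 630423.4 and 374564.2 to 374865.8. Haemocyte markers gave 3 rises and 5 falls of 12, with sums of 25853.0 to 26299.2 and 26482.7 to 26843.7. Listed at 0 in every library were 5 of 149 midgut and 3 of 193 epidermal genes matched by name.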

How the data were processed

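Gene expression was measured by RNA sequencing of 4 libraries. The authors deposited 1 table of normalized counts, a signal per gene and library. Per the submitters' processing notes, fastp 0.12.4, DRAGEN, bcl2fastq and STAR 2.7.10a were used. No source used here names the counter, build, strand setting or scaling method. Within each library 100% of values were whole multiples of the smallest (relative tolerance 1e-06), which gave the reads used as an alternative.

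All 25320 gene identifiers matched the AalbF5 gene table, used for gene order, overlap and gene span only. Isoform suffixes were removed from product names before matching lists. Members and lists were chosen with earlier results of these data known. Named genes were all vanin-like genes, the 6 nearest profiles and 3 neighbours on each side. In each list they were the 4 tested members with the lowest p that averaged 50 or more. Other genes are given as the rest of a short list or for comparison with a named gene.

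Tests used limma 3.58.1 in R 4.3.3 (trended eBayes, pseudocount 1), which understates fold changes of low genes. Alternatives used edgeR 4.0.16 and DESeq2 1.42.0. Python 3.11.15 with scipy 1.17.1 gave intervals. Sequences were not used here.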

Additional observations from a re-analysis of the deposited data

How the results depend on the processing

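Across 16 alternatives, 1 of which (each library's trend on gene span removed by loess, span 0.3) was added after seeing the data, the log2 fold change of LOC109421937 ran from 3.04 to 3.16. The lowest, 3.04, came from quantile normalization and differed from 3.15 by more than the spread between replicates; the cause was not tested. The other vanin-like genes called higher were 3 of 4 in every alternative, with log2 fold changes of 0.81 to 0.90 for LOC109421936, 0.61 to 0.89 for LOC109421940 and 0.68 to 1.00 for LOC134289400. LOC109421938 was called in 0 of 16 (adjusted p from 0.284 to 0.974 over limma, edgeR and DESeq2) and ran from -0.029 without control replicate 2, a change of sign, to 0.159 without control replicate 1. Over all genes 5999 to 9056 were called, the lowest with a constant variance prior, with 8829 in edgeR and 7243 in DESeq2. With that prior the limma adjusted p was 0.016 for LOC109421936, 0.027 for LOC109421940 and 0.03 for LOC134289400. The far smaller limma values given above thus depend on the trended prior. In edgeR and DESeq2 the adjusted p of these genes was at most 8.65e-09. Over the metabolic lists 17 to 24 genes were called higher and 6 to 9 lower, and the replicate block gave 24 and 8. Replicate differences in controls and in diquat larvae had a correlation of 0.0118 over tested genes. With 1 difference per group this cannot show whether the replicate numbers pair the libraries. The block changed no call of a vanin-like gene. The genes of coenzyme A breakdown called higher were 5 in place of 8 without diquat replicate 2, with a constant variance prior and in DESeq2, and 1 in place of 0 was called lower without diquat replicate 2, with a mean of at least 50, at equal totals, under quantile normalization and with the replicate block. Quantile normalization also called 1 of the carbon-nitrogen hydrolase relatives lower. The share of family reads in LOC109421937 ran from 26.5% to 28.5% over the control libraries and from 66.4% to 67.2% over the diquat libraries. A factor per library cannot change a share within that library, so the scaling alternatives do not test it. Values per coding length were not run, since lengths were not given. With 2 libraries per group, leaving 1 out assumes that the lone library varies like the other group. Depth limits LOC109421938 most.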

Other observations

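The rise of 1 copy amid neighbours of the same name was set beside other such runs, a search added after seeing the data and given without a test. Runs were genes on a chromosome of the AalbF5 annotation that share a product name apart from its number, with at most 1 other gene between them and at least 4 members that averaged 100 normalized counts or more. There were 47 such runs. By the gap between the highest and the next log2 fold change, the vanin-like run, at 2.29, was in place 2. LOC109421937 was singled out for the log2 fold change that sets this gap, so a high place follows in part from that choice. A run of phenoloxidase-activating factor genes was in place 1, where LOC115257596 was at 2.97 and the gap was 2.37. Runs of protein lethal(2)essential for life genes (LOC115262957 at 2.14, gap 1.66), ejaculatory bulb-specific protein genes (LOC109432495 at 2.02, gap 1.51) and membrane-bound alkaline phosphatase genes (LOC134289615 at 2.20, gap 1.34) followed.

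Also chosen after its value was seen is a peroxidase gene (LOC109421941) that stands 9 genes before LOC109421937. Its mean was 3812 ± 124.1 normalized counts in untreated larvae and 718.6 ± 31.4 in diquat larvae (SD, n = 2 per group), a log2 change of -2.41 ± 0.06 (SE; limma adjusted p = 2.1e-22).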
